A study of Mus musculus with 18 samples.

Results

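The regions described here are the RNA polymerase II (Pol II), CTCF and IgG union peaks of 6 noncoding genes, *Malat1*, *Neat1*, *Gas5*, *Snhg1*, *Snhg12* and *Snhg8*, in mouse ventricles. A union peak is a region called in any library and then measured in all of them. By gene symbol, 2 of the 101256 union peaks belonged to these genes. Both carried the symbol *Malat1* and both lay upstream of the gene. The deposited table names a region after a gene start near it, here mostly that of a small RNA or a neighbour. This was not always the nearest start. The peak over the *Snhg12* start carried the name *Rab42*, whose start lay 5261 nt from the peak centre. By position, 29 union peaks lay within 5000 nt of the 6 genes. Of these, 24 carried the identifier of another gene, 1 carried that of *Snhg8* without a symbol and 2 carried none. *Malat1* had 5 of them, *Neat1* 6, *Gas5* 5, *Snhg1* 4, *Snhg12* 6 and *Snhg8* 3.

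A chromatin preparation used ventricles of 2 adult mouse hearts, so a library may pool animals. Each genotype had 2 libraries for the B1 subunit of Pol II, 2 for CTCF and 1 for IgG. WT mice were the controls. *Trdn-as* KO mice are homozygous for a polyadenylation signal in the first exon of *Trdn-as*, which stops this antisense transcript early. They were made with Cas9 in embryonic stem cells and backcrossed to C57BL/6. *Mettl3* KO mice (Mettl3lox/lox:alphaMHC-MerCreMerpos) lose the m6A methyltransferase METTL3 after tamoxifen, in cardiomyocytes only, so other heart cells keep it. The study does not state whether the WT mice of these libraries received tamoxifen or carried the lox alleles. An effect of tamoxifen, the lox alleles or the transgene may thus not be separable from the loss of METTL3. CTCF, a DNA-binding insulator protein, was the positive control, and IgG gave the background. Nothing states that the libraries of a genotype came from separate hearts, so p-values measure only the spread between libraries, which may be technical.

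*Malat1* and *Neat1* are neighbouring, very abundant nuclear RNAs transcribed by Pol II. *Malat1* gathers in nuclear speckles, which hold splicing factors, and *Neat1* is the scaffold of paraspeckles. *Gas5*, *Snhg1*, *Snhg12* and *Snhg8* are spliced host transcripts whose introns release small nucleolar RNAs (snoRNAs), guides for the chemical modification of ribosomal RNA. Many such hosts start within a pyrimidine tract, the 5′ terminal oligopyrimidine motif, and their spliced RNA is often degraded by nonsense-mediated decay.

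The start regions of the 4 hosts and of *Malat1* are shown because the largest Pol II peak of each gene covers them. They run from 60 bases before the annotated start to 30 bases from it on, taken from RefSeq promoters of GRCm38.p6. Capitals mark TATA within 40 to 16 bases before the start, and runs of C followed by at least 4 pyrimidines that begin within 10 bases of the start. RefSeq promoters were found for 5 of the 6 genes, with 2 starts for *Gas5*, of which the downstream one is printed.
Gas5, chr1:161035106-161035195, plus strand: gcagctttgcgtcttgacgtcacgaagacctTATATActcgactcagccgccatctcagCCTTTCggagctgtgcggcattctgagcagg
Snhg1, chr19:8723427-8723516, plus strand: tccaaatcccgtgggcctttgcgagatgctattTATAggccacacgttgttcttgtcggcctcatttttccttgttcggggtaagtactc
Snhg12, chr4:132308618-132308707, plus strand: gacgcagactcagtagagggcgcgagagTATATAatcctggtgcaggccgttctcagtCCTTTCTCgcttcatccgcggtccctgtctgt
Snhg8, chr3:123508307-123508396, minus strand: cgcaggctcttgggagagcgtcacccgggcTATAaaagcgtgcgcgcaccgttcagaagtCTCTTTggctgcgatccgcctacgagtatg
Malat1, chr19:5802643-5802732, minus strand: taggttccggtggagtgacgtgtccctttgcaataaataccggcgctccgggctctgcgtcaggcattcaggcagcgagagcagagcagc

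The printed starts of the 4 hosts held TATA in that window, against 5.91% of the 32851 promoters in the table. The other *Gas5* start held neither TATA nor a pyrimidine tract there. The printed *Gas5*, *Snhg12* and *Snhg8* starts held a pyrimidine tract of this kind, as did 30.7% of all promoters. A C at the annotated start base itself with at least 4 pyrimidines after it was in *Gas5* and *Snhg8*, and in 2.51% of all promoters. The marked run begins at that base in *Snhg8* and 1 base before it in *Gas5*. The *Malat1* start held neither, and these windows were set after the sequences were seen. Of the motifs searched on both strands over the whole 300 bases, TATAAA was in *Snhg1* and *Snhg8* (13.6% of all promoters), where it overlaps the TATA above. GGGCGG was in both *Gas5* promoters, *Snhg1* and *Snhg8* (35.7%), and CCAAT was in *Snhg8* alone among these genes (37.4%). CCGGAAG (8.86%), CACGTG (7.15%) and the CTCF core motif (4 of 32851) were in none of them.

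Some libraries stood apart from the rest. The Pol II libraries held 1987633 to 4953300 reads in union peaks. These were 18.6% of the mapped reads in *Trdn-as* KO replicate 2 and 35.5% to 42.6% in the other 5. The 6 union peaks on the Y chromosome summed to 223 to 326 in the WT and *Mettl3* KO Pol II libraries and to 0 in every *Trdn-as* KO library, so sex and the *Trdn-as* genotype cannot be told apart. The *Trdn-as* promoter peak read 530 and 595 (WT), 140 and 100 (*Trdn-as* KO) and 503 and 491 (*Mettl3* KO). The *Mettl3* promoter peak, which draws on all heart cells and checks nothing of the deletion, read 177 and 202 (WT) and 240 and 235 (*Mettl3* KO). The summed Pol II values at 6 cardiomyocyte markers were 21733 to 29986, and at the hepatocyte marker *Apoa1* 18 to 36. The sum over the 3 fibroblast markers *Col1a1*, *Dcn* and *Pdgfra* was 417 and 427 (WT), 626 and 434 (*Trdn-as* KO) and 853 and 862 (*Mettl3* KO), with each of the 3 genes higher in both *Mettl3* KO libraries than in WT. The 2 endothelial markers with a peak summed to 528 and 563 (WT) and 538 and 576 (*Mettl3* KO), 2 leukocyte markers to 86 to 134 over all libraries and 3 skeletal muscle markers, *Ckm* included, which heart also uses, to 634 to 815.

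Values are read numbers divided by a size factor per library and rounded, without a unit of their own. Differences were tested with limma on log2(value + 1) over the 6 libraries of a target, for peaks that reached 10 in 2 or more of them, with Benjamini-Hochberg adjustment at 0.05 over all peaks tested. On this scale, a fold change understates the change of low peaks. For Pol II, 52655 peaks were tested, and 24 of the 29 peaks at the 6 genes passed the filter. The 5 that did not had values of 0 to 10.

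*Malat1* lay under 1 broad Pol II peak, and no difference between genotypes passed the main test there. The peak (chromosome 19, 5842692 to 5854931 in GRCm39, 12240 nt) covered the whole gene (ENSMUSG00000092341, minus strand, 5845717 to 5852704). It reached upstream of the start and was the peak with rank 7 of the table by mean Pol II value and rank 13 by length. The Pol II value was 4054 and 4128 (WT), 4164 and 3180 (*Trdn-as* KO) and 3806 and 3800 (*Mettl3* KO). Both values of *Mettl3* KO were under those of WT, and those of *Trdn-as* KO lay on both sides of WT. Against WT, *Trdn-as* KO gave a log2 fold change of -0.17 (95% interval -0.37 to 0.03, adjusted p = 0.74 by limma) and *Mettl3* KO one of -0.11 (95% interval -0.30 to 0.09, adjusted p = 0.64 by limma). With the compared genotypes alone in the model, the latter passed (adjusted p = 0.016 by limma), with 4891 of 47697 peaks called.

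The 2 peaks named *Malat1* in the table are smaller and lie upstream of the broad peak. The first, from 5855932 to 5857224, had Pol II values of 196 and 210 (WT), 198 and 134 (*Trdn-as* KO) and 212 and 190 (*Mettl3* KO), so the groups overlapped. The second, from 5855097 to 5855380, had 14 and 19, 17 and 10, and 6 and 5 in the same order. Both *Mettl3* KO libraries were below the others at the second peak. Neither peak passed the test in any comparison of genotypes, with limma log2 fold changes against WT between -1.42 and -0.02 (adjusted p from 0.25 to 0.98). Of all peaks tested, 0.304% passed in *Trdn-as* KO against WT, 1.19% in *Mettl3* KO against WT and 1.5% in *Trdn-as* KO against *Mettl3* KO. Summed to a gene, the 2 peaks gave a log2 fold change of -0.32 in *Trdn-as* KO and -0.09 in *Mettl3* KO hearts, and neither passed, where 0.354% and 3.98% of the 12442 symbols tested did. Between the knockouts it was -0.23, which did not pass either (6.09% of symbols did).

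Pol II at *Neat1* fell in *Mettl3* KO hearts, by a difference that kept its direction but not its call under several settings. The gene (ENSMUSG00000092274, minus strand) was placed at 5874736 to 5895506 on chromosome 19 by its distance from *Frmd8*. Its start peak, from 5878218 to 5902779, was 24562 nt long. It was the peak with rank 2 of the table both by length and by mean Pol II value. It reached upstream of the placed start and covered 17289 of the 20771 nt of the gene, so it also holds most of the gene body. The Pol II value was 7544 and 7737 (WT), 7791 and 6352 (*Trdn-as* KO) and 6051 and 6153 (*Mettl3* KO). Both *Mettl3* KO libraries were below both WT libraries. The log2 fold change of *Mettl3* KO against WT was -0.32 (SE 0.086, 95% interval -0.50 to -0.15, adjusted p = 0.039 by limma). It was the only 1 of the 24 peaks that passed in this comparison, in which 0.482% of all peaks tested were called lower. The call was lost with mapped reads as the library size (-0.46, adjusted p = 1 by limma), without a filter (adjusted p = 0.54 by limma) and without a variance trend (adjusted p = 0.63 by limma). The adjusted p was 0.53 or more when any 1 WT or *Mettl3* KO library was left out, with log2 fold changes of -0.34 to -0.31.

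Farther along *Neat1*, no peak passed the main test in *Mettl3* KO against WT. The peak in the gene body, from 5875884 to 5878124, had Pol II values of 197 and 257 (WT), 195 and 128 (*Trdn-as* KO) and 125 and 154 (*Mettl3* KO). The peak over the 3′ end, from 5871857 to 5875649, had 493 and 565, 509 and 320, and 347 and 335 in the same order. At both peaks the *Mettl3* KO libraries lay below WT and overlapped the range of *Trdn-as* KO. In *Mettl3* KO against WT the log2 fold change was -0.69 in the body (95% interval -1.14 to -0.25, adjusted p = 0.10 by limma) and -0.63 at the end (95% interval -0.98 to -0.28, adjusted p = 0.051 by limma), so neither passed. Both passed with median-ratio scaling, with only the compared genotypes and without either *Trdn-as* KO library (adjusted p from 4.72e-05 to 0.025 by limma), settings under which 2479 to 4975 of all peaks were called, against 629. The end peak also passed with log2(value + 8) (adjusted p = 0.020 by limma). The peak downstream of the gene, from 5867593 to 5870267, had Pol II values of 252 and 258 (WT), 226 and 147 (*Trdn-as* KO) and 185 and 266 (*Mettl3* KO). The *Mettl3* KO libraries lay on both sides of WT there (log2 fold change -0.20, 95% interval -0.62 to 0.22, adjusted p = 0.67 by limma). The sum of the 6 *Neat1* peaks was 8496 and 8839 (WT), 8737 and 6959 (*Trdn-as* KO) and 6717 and 6917 (*Mettl3* KO). As 1 row of the table, it fell by 0.35 on the log2 scale in *Mettl3* KO hearts (SE 0.085, adjusted p = 0.022 by limma), the only 1 of the 6 gene sums that passed, with 1.19% of all rows called. The sum lost its call with mapped reads as the library size (-0.49), without a filter, without a variance trend and without any 1 WT or *Mettl3* KO library, with adjusted p from 0.52 to 1 by limma.

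In *Trdn-as* KO against WT, *Neat1* did not pass at any peak. Log2 fold changes were -0.12 at the start (95% interval -0.29 to 0.05), -0.51 in the body and -0.39 at the end, with limma adjusted p of 0.81, 0.56 and 0.59. They followed the *Trdn-as* KO library used. Without replicate 2 the start peak had a log2 fold change of 0.03 (adjusted p = 0.73 by limma), and without replicate 1 it had -0.27 (adjusted p = 2.14e-04 by limma). *Trdn-as* KO against *Mettl3* KO gave 0.21 at the start peak (95% interval 0.03 to 0.38, adjusted p = 0.19 by limma). Leaving out 1 library at a time, this difference ran from 0.06 to 0.35, the highest without *Trdn-as* KO replicate 2. With mapped reads as the library size it was -0.26, where the median of all peaks moved from -0.16 to -0.62, and relative to that median it was 0.36 under both scalings.

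The ratio of *Neat1* to *Malat1* within a library does not depend on scaling. The start peak of *Neat1* held 1.86 and 1.87 (WT), 1.87 and 2.00 (*Trdn-as* KO) and 1.59 and 1.62 (*Mettl3* KO) times the Pol II value of the *Malat1* peak. The ratios of *Mettl3* KO and the other genotypes did not overlap (log2 difference to WT -0.22, exact two-sided permutation p = 0.33, the smallest that 2 against 2 libraries allow). The start peak of *Neat1* over its other 5 peaks had log2 ratios of 2.98 and 2.81 (WT), 3.04 and 3.39 (*Trdn-as* KO) and 3.18 and 3.01 (*Mettl3* KO). Both knockouts lay above WT there, with exact two-sided permutation p = 0.33 for each. The start peak over the body and end peaks alone had log2 ratios of 3.45 and 3.23 (WT), 3.47 and 3.82 (*Trdn-as* KO) and 3.68 and 3.65 (*Mettl3* KO), with exact two-sided permutation p = 0.33 for each knockout against WT. The *Neat1* start peak covers most of the gene, so its ratios to the other *Neat1* peaks do not set promoter against gene body. For *Malat1*, the broad peak over the other 4 had log2 ratios of 4.13 and 4.05 (WT), 4.12 and 4.29 (*Trdn-as* KO) and 3.96 and 4.18 (*Mettl3* KO), which overlapped.

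**Figure D1:**
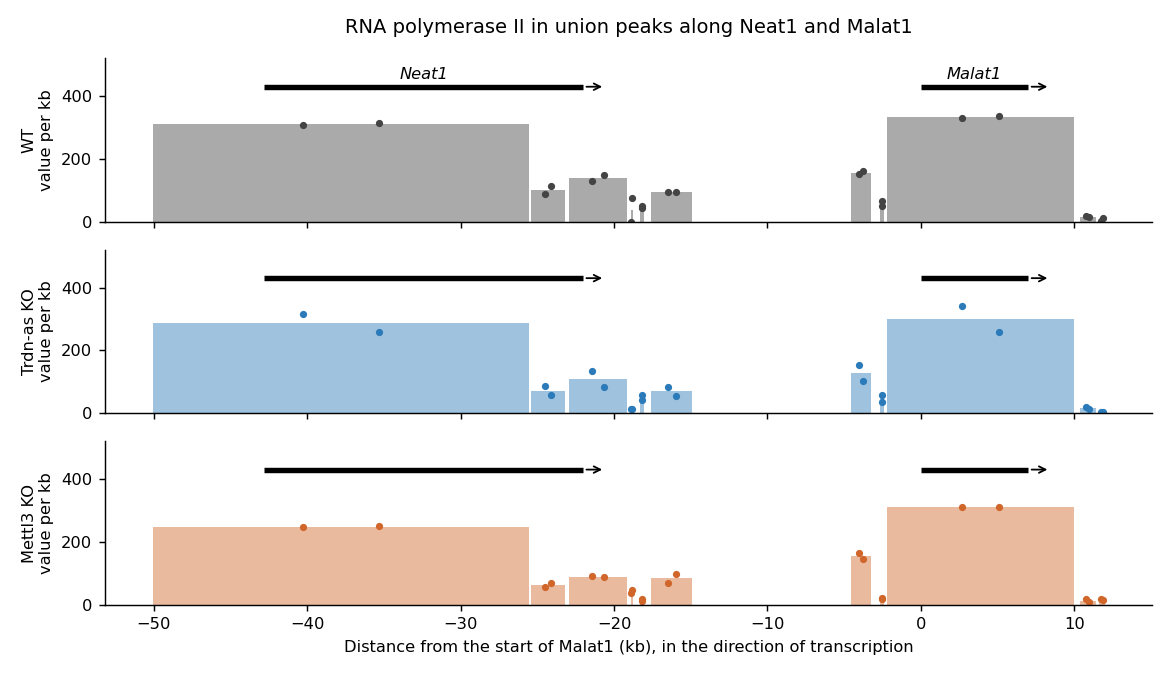
Pol II value per kb (mean as bar, the 2 libraries as points) in the union peaks within 5000 nt of *Neat1* and *Malat1*, against the distance from the *Malat1* start in kb, for each genotype. Black lines are the genes, *Neat1* placed by its distance from *Frmd8*, and arrows give the direction of transcription. The bar over the *Neat1* start lies at 307 and 315 per kb in WT and at 246 and 251 per kb in *Mettl3* KO hearts.

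Fibroblast markers moved with the *Mettl3* genotype, as given above, and their part in the *Neat1* difference was not tested. In tissue of mixed cells, fewer cells of a type and less Pol II per cell cannot be told apart.

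At the starts of the snoRNA hosts, Pol II on the deposited scaling was higher in both *Mettl3* KO libraries than in both WT libraries for all 4 genes, and no host start passed the test. In RPM (reads scaled to the mapped reads of the library) the *Mettl3* KO and WT ranges overlapped at *Gas5*, *Snhg1* and *Snhg12*, and *Snhg8* stayed apart with 71.1 and 70.7 (WT) and 73.1 and 87.1 (*Mettl3* KO). On the deposited scaling, both *Mettl3* KO libraries were above both WT libraries at 31.2% of all peaks tested. The *Gas5* start peak (chromosome 1, 160861589 to 160864376) is shared with the divergent start of *Zbtb37*, a zinc finger gene, and read 711 and 710 (WT), 835 and 629 (*Trdn-as* KO) and 833 and 808 (*Mettl3* KO). The *Snhg1* start peak (chromosome 19, 8700043 to 8701560) is shared with the start of *Slc3a2*, which encodes the heavy chain of amino acid transporters, and read 428 and 464, 490 and 377, and 545 and 514. At these 2 peaks the signal of host and neighbour cannot be separated. The *Snhg12* start peak (chromosome 4, 132035008 to 132036906) read 421 and 397, 424 and 332, and 426 and 483, and the *Snhg8* start peak (chromosome 3, 123301150 to 123303153) read 842 and 781, 890 and 802, and 963 and 1050.

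In *Mettl3* KO against WT, the log2 fold change was 0.31 at *Snhg8* (95% interval 0.04 to 0.58, adjusted p = 0.25 by limma) and 0.25 at *Snhg1* (95% interval -0.08 to 0.57, adjusted p = 0.46 by limma). It was 0.21 at *Gas5* (95% interval -0.08 to 0.49, adjusted p = 0.49 by limma) and 0.15 at *Snhg12* (95% interval -0.18 to 0.48, adjusted p = 0.70 by limma). With mapped reads as the library size, where the median of all peaks moved from 0.08 to -0.06, the values were 0.17 at *Snhg8*, 0.11 at *Snhg1*, 0.068 at *Gas5* and 0.010 at *Snhg12*. Without either *Trdn-as* KO library, or with only the compared genotypes, *Gas5* and *Snhg8* did pass, with adjusted p from 0.012 to 0.036 by limma. Under these settings 4891 to 4975 of all peaks were called, against 629. In *Trdn-as* KO against WT the 4 values ran from -0.12 at *Snhg12* to 0.06 at *Snhg8*, with adjusted p of 0.94 or more by limma. With mapped reads as the library size the median of all peaks moved from -0.07 to -0.67, and *Gas5* went to -0.57 and *Snhg8* to -0.54. Relative to that median, *Gas5* had 0.098 and 0.094 and *Snhg8* 0.13 and 0.12 under the 2 scalings. At *Gas5*, *Snhg1* and *Snhg12* the 2 *Trdn-as* KO libraries lay on both sides of WT, and at *Snhg8* both lay above the lower WT library.

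Past the 3′ end of *Gas5*, a second peak differed between the knockouts. It lies at 160866666 to 160868372 on chromosome 1, outside the gene as placed by its distance from *Zbtb37* (160861992 to 160866109, plus strand, ENSMUSG00000053332), and carries the name *Zbtb37* in the table. Its Pol II value was 91 and 108 (WT), 226 and 161 (*Trdn-as* KO) and 76 and 70 (*Mettl3* KO). Both *Trdn-as* KO libraries were above WT and both *Mettl3* KO libraries below it on these values. In RPM it was 7.69 and 9.78 (WT), 16.3 and 7.40 (*Trdn-as* KO) and 5.77 and 5.80 (*Mettl3* KO), so that *Trdn-as* KO replicate 2 lay below WT. That library had the lowest share of mapped reads in union peaks (18.6%). Relative to the median of all peaks, *Trdn-as* KO against WT gave 1.01 under the deposited, mapped-read and median-ratio scalings. *Trdn-as* KO against *Mettl3* KO gave a log2 fold change of 1.37 (SE 0.24, 95% interval 0.89 to 1.86, adjusted p = 3.96e-04 by limma), the only 1 of the 24 peaks that passed, where 0.355% of all peaks tested were called higher. It was 0.94 in *Trdn-as* KO against WT (95% interval 0.45 to 1.43, adjusted p = 0.078 by limma) and -0.44 in *Mettl3* KO against WT (95% interval -0.93 to 0.05, adjusted p = 0.38 by limma). The call between the knockouts was lost with mapped reads as the library size (0.92, adjusted p = 0.39 by limma), without a filter (adjusted p = 0.40 by limma), without a variance trend (adjusted p = 0.28 by limma) and with only the compared genotypes (adjusted p = 0.055 by limma). Without WT replicate 1 the limma adjusted p of this difference was 0.051, and without *Mettl3* KO replicate 1 or 2 it was 0.20 or 0.41, with log2 fold changes of 1.37, 1.43 and 1.32.

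Relative to the *Gas5* start peak of the same library, this downstream peak held 0.129 and 0.153 (WT), 0.272 and 0.257 (*Trdn-as* KO) and 0.0923 and 0.0878 (*Mettl3* KO) of the Pol II value. The 3 genotypes did not overlap (exact two-sided permutation p = 0.33 for each pair). The CTCF libraries were near the floor there, at 5 and 11 (WT), 16 and 14 (*Trdn-as* KO) and 5 and 7 (*Mettl3* KO), with *Trdn-as* KO above both others (*Trdn-as* KO against WT 0.91, adjusted p = 0.36 by limma). Between the knockouts the CTCF difference was 1.20 (95% interval 0.51 to 1.90, adjusted p = 0.079 by limma). The IgG libraries held 8, 6 and 8 reads, 0.483, 1.14 and 1.06 RPM, in WT, *Trdn-as* KO and *Mettl3* KO. Sex, as read from the Y chromosome, separates *Trdn-as* KO from both other genotypes in the same way, and its part was not tested.

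**Figure D2:**
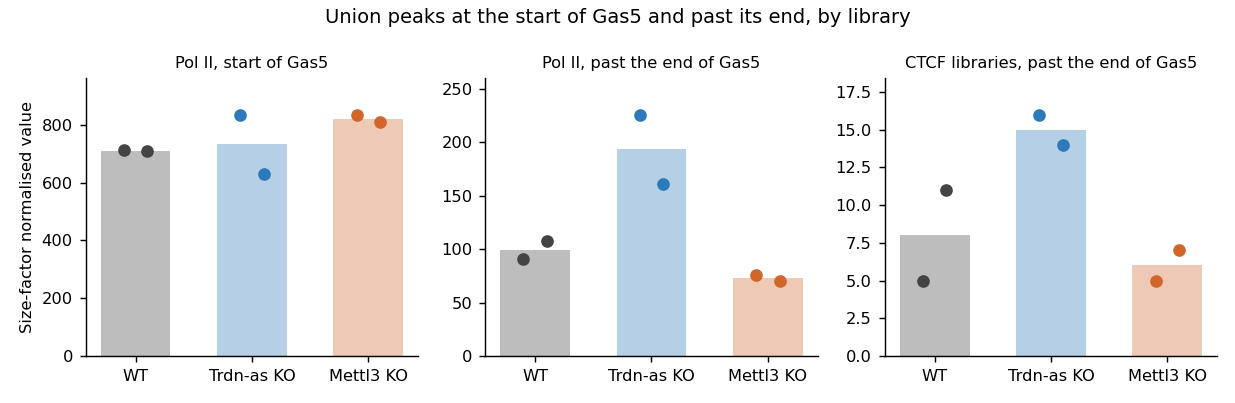
Values by library at the *Gas5* start peak (Pol II, left) and at the peak past its 3′ end (Pol II, middle, and CTCF libraries, right), with the mean as a bar from 0. At the downstream peak the Pol II points of *Trdn-as* KO (226 and 161) lie above WT and those of *Mettl3* KO (76 and 70) below. At the start peak the points of *Trdn-as* KO lie on both sides of WT and those of *Mettl3* KO (833 and 808) above it.

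Downstream of *Snhg12*, at 132038470 to 132039728 and named after *Snord99*, Pol II read 82 and 101 (WT), 121 and 81 (*Trdn-as* KO) and 74 and 54 (*Mettl3* KO) (-0.52 in *Mettl3* KO against WT, adjusted p = 0.35 by limma). Downstream of *Snhg8*, at 123299209 to 123301084 and named after *Snora24*, it read 117 and 138, 180 and 143, and 103 and 130 in the same order. At the latter *Trdn-as* KO against WT gave 0.33 (adjusted p = 0.80 by limma), and in RPM its libraries (13.0 and 6.57) lay on both sides of WT (9.88 and 12.5). The peak upstream of *Snhg12*, named after *Rab42*, read 103 and 81, 84 and 55, and 97 and 85, and overlapped. Peaks with a mean below 50 had Pol II values of 0 to 50, and none of those tested passed.

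Over the 24 tested peaks, 0 passed in *Trdn-as* KO against WT by limma, with 4 at an unadjusted p below 0.05 (4052 of all 52655 peaks). In *Mettl3* KO against WT, 1 passed, with 5 at an unadjusted p below 0.05 (8163 of all peaks), and in *Trdn-as* KO against *Mettl3* KO 1 passed, with 8 (9413 of all peaks). Values of *Mettl3* KO lay entirely below those of WT at 11 of the 24 peaks and above them at 4, where 19.5% and 31.2% of all peaks tested did so. For *Neat1* this was 4 of the 5 tested peaks. A low peak passes the filter through the libraries in which it is high, so these counts are a description of the peaks that passed. The median log2 fold change over the 24 was -0.34 in *Mettl3* KO against WT, beside 0.08 over all peaks, and -0.12 in *Trdn-as* KO against WT, beside -0.07.

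**Figure D3:**
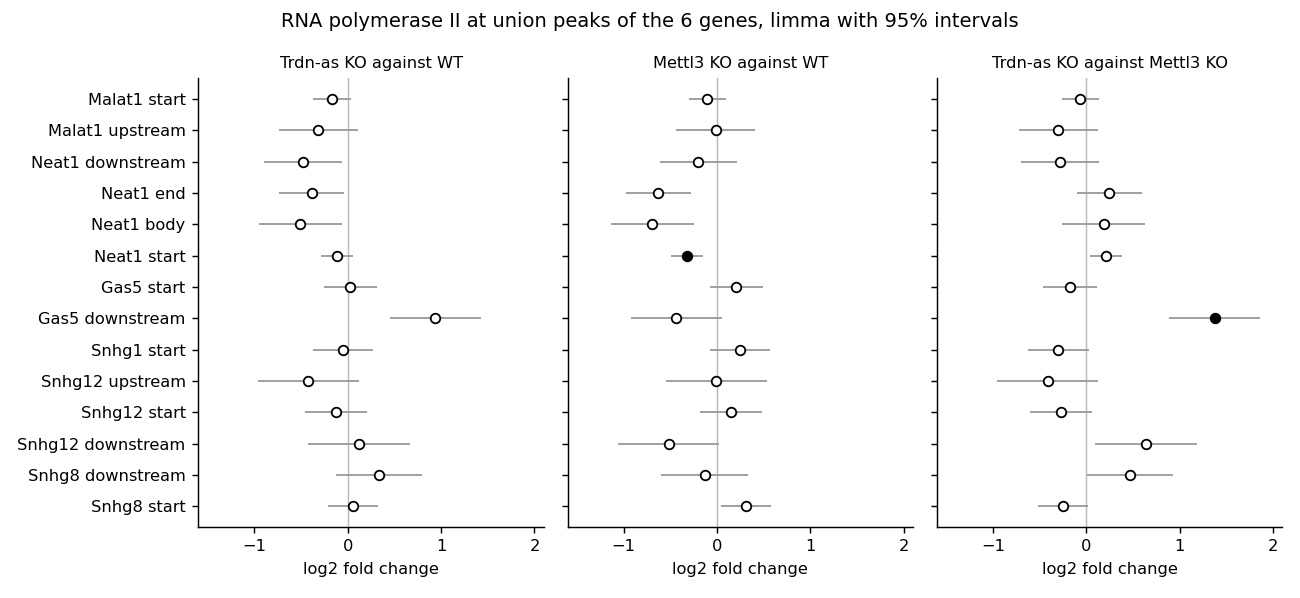
Log2 fold change of Pol II with 95% intervals from limma at the 14 union peaks of the 6 genes with a mean value of at least 50, in the 3 comparisons. Filled points passed an adjusted p of 0.05, which are the *Neat1* start peak in *Mettl3* KO against WT and the peak downstream of *Gas5* in *Trdn-as* KO against *Mettl3* KO.

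Per kb of peak, the order of the starts in WT was *Snhg8* (420 and 390), *Malat1* (331 and 337), *Neat1* (307 and 315), *Snhg1* (282 and 306), *Gas5* (255 and 255) and *Snhg12* (222 and 209). No neighbours in this order overlapped, but the gap between *Neat1* and *Snhg1* was smaller than the spread of their libraries. In *Mettl3* KO hearts *Neat1* (246 and 251) came below *Snhg1* (359 and 339) and *Gas5* (299 and 290), and its range lay within that of *Snhg12* (224 and 254). More than 96% of all union peaks had a lower mean Pol II value per kb than each of the 6 starts.

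Against IgG, the starts were well above background. In RPM, the WT Pol II libraries held 342 and 374 at *Malat1*, against 12.4 in IgG (95% exact Poisson interval 10.8 to 14.2, counting error only). At *Neat1* they held 637 and 700 against 24.6 (22.3 to 27.1). The host starts held 60.1 and 64.3 at *Gas5*, 36.2 and 42.0 at *Snhg1*, 35.6 and 35.9 at *Snhg12* and 71.1 and 70.7 at *Snhg8*, against IgG of 3.14, 1.75, 1.81 and 2.18. The WT ratio of Pol II to IgG ran from 19.7 at *Snhg12* to 32.6 at *Snhg8*, with 28.9 at *Malat1* and 27.2 at *Neat1*. In *Mettl3* KO hearts it was 16.6 at *Malat1* and *Neat1*, 20.4 at *Gas5*, 31.6 at *Snhg1*, 21.0 at *Snhg12* and 50.2 at *Snhg8*. In *Trdn-as* KO hearts it was 17.1 at *Malat1*, 15.6 at *Neat1*, 26.1 at *Gas5*, 11.0 at *Snhg12* and 22.2 at *Snhg8*, and the 3 IgG reads at *Snhg1* were too few for a ratio. With 1 IgG library per genotype, these ratios have no replicate check.

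CTCF signal at the starts was lower than Pol II in RPM. In WT it was 65.6 and 68.6 RPM at *Malat1* and 104 and 104 at *Neat1*, 5.42 and 4.23 times the IgG. At the 4 host starts it was 8.38 to 14.0 RPM, 2.91 times the IgG at *Gas5* and 6.30 times at *Snhg8*. Relative to Pol II, CTCF at the 6 starts was between 0.147 (*Gas5*) and 0.284 (*Snhg12*). The libraries of these antibodies were not calibrated to each other, so such ratios order peaks and do not compare amounts of bound protein.

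Other peaks had as much CTCF as Pol II signal in RPM, or more. The peak downstream of *Neat1*, at 5867593 to 5870267, had CTCF values of 217 and 190 (WT), 231 and 199 (*Trdn-as* KO) and 195 and 196 (*Mettl3* KO). In WT this was 1.12 times Pol II in RPM and 9.16 times the IgG. The peak upstream of *Snhg1*, at 8695434 to 8696414, had CTCF values of 79 and 77, 95 and 80, and 80 and 76, which in WT was 6.60 times Pol II. Pol II there was 1.50 times the IgG. The peak inside *Snhg12*, at 132037041 to 132037880 and named after *Snora61*, had CTCF values of 66 and 56, 70 and 56, and 57 and 63, which in WT was 2.22 times Pol II and 15.4 times the IgG. At these 3 peaks the log2 differences between genotypes ran from -0.05 to 0.16, with adjusted p of 0.42 or more by limma.

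No CTCF difference passed the test at these genes. Of the 29 peaks, 18 were tested, and 0 passed by limma in each comparison, with 2 at an unadjusted p below 0.05 in each (6178, 9503 and 11390 of all 60649 peaks). Over all CTCF peaks tested, 0.587% passed in *Trdn-as* KO against WT, 0.185% in *Mettl3* KO against WT and 1.37% in *Trdn-as* KO against *Mettl3* KO. At *Neat1* the CTCF libraries gave values of 853 and 845 (WT), 875 and 841 (*Trdn-as* KO) and 815 and 844 (*Mettl3* KO). The log2 fold change of *Mettl3* KO against WT was -0.03 (95% interval -0.12 to 0.05, adjusted p = 0.73 by limma). Whether this differs from the Pol II change was not tested. At *Malat1* they gave 540 and 556, 519 and 505, and 511 and 499, with log2 fold changes of -0.10 and -0.12 against WT (adjusted p of 0.52 and 0.26 by limma).

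Other genes of the same pathways were read at their highest Pol II peak. Of 17 other noncoding snoRNA hosts, 9 were tested, and 0 passed against WT in either knockout. Their median log2 fold change was 0.22 in *Mettl3* KO against WT, all 9 above 0, and -0.11 in *Trdn-as* KO against WT, with 1 of 9 above 0. The 2 with the highest Pol II were *Snhg5* (WT 447 and 436, *Mettl3* KO 483 and 549) and *Snhg6* (338 and 313, and 358 and 426). *Snhg16* was the only 1 of the list that passed in *Trdn-as* KO against *Mettl3* KO (178 and 140 against 280 and 245, log2 fold change -0.73, adjusted p = 0.045 by limma), where 1.5% of all peaks passed. Of 20 protein-coding snoRNA hosts, 16 were tested and 0 passed, with a median of 0.23 in *Mettl3* KO against WT. The highest were *Hspa8*, a chaperone gene (WT 1219 and 1093, *Mettl3* KO 1342 and 1346), and *Eif4a2*, a translation factor gene (1017 and 976, and 1049 and 1149).

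The 9 snoRNP core genes, whose proteins bind the snoRNAs, had a median of 0.25 in *Mettl3* KO against WT and 0 passing. The highest Pol II was at *Fbl*, the methyltransferase, which read 278 and 289 (WT) and 298 and 301 (*Mettl3* KO), and at *Snu13*, a box C/D protein, which read 263 and 272, and 313 and 278. Of 13 genes of paraspeckle proteins 12 were tested, with a median of 0.27 and 0 passing. *Hnrnph1* read 844 and 801 (WT) and 1015 and 1039 (*Mettl3* KO). The 12 genes of nuclear speckle proteins had a median of 0.27 with 0 passing, among them *Srsf2* (WT 1151 and 1128, *Mettl3* KO 1296 and 1439) and *Son* (1004 and 955, and 1256 and 1357). Of 10 genes for nonsense-mediated decay 8 were tested, with a median of 0.41 and 0 passing, among them *Smg1* (WT 447 and 436, *Mettl3* KO 589 and 613). Of 12 neighbours of the 6 genes 11 were tested, with a median of 0.25 and 0 passing, and this list holds the shared *Gas5* and *Snhg1* starts through *Zbtb37* and *Slc3a2*. The highest of the rest was *Rcc1*, next to *Snhg12* (WT 492 and 464, *Mettl3* KO 545 and 573). Beside these medians stand 0.08 over all peaks and 0.25 over the 12442 gene symbols with their peaks summed, and 6 of the 7 list medians lay between 0.22 and 0.27.

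The genes whose Pol II values were most like each start were found by Pearson's r of log2(value + 1) over the 6 Pol II libraries, among 9276 genes with a mean of at least 100. This is a description, since the libraries share depth and scaling. For *Neat1* they were *Gstt2* (r = 0.989), *Lrtm1* (r = 0.986) and *4930449E18Rik* (r = 0.979). *Gstt2*, a glutathione transferase gene, read 596 and 652 (WT), 611 and 436 (*Trdn-as* KO) and 378 and 373 (*Mettl3* KO). For *Malat1* they were *Stxbp6*, *Aldh5a1* and *Timp3*, with r from 0.994 to 0.995. *Gas5* was most like *Gm15409*, *Snhg1* most like *Ost4*, *Snhg12* most like *Ubap2* and *Snhg8* most like *Tbc1d13*, each with r above 0.99.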

How the data were processed

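Chromatin of mouse ventricles was immunoprecipitated for Pol II, CTCF or IgG in 15 libraries, and the 3 inputs were not analysed here. The authors trimmed reads with Trimmomatic 0.39, aligned them to mm39 with STAR 2.7.11b, removed duplicates with Picard 3.1.1, dropped mitochondrial, ribosomal, spliced and multi-mapping reads, used MACS for peaks, counted reads with featureCounts and normalised them with DESeq2 1.36.0. Multi-mapping reads are thus missing from repeats. The deposited values are these normalised counts rounded to whole numbers, a score per region and library, so count models were not used.

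The value of 1 read was estimated from the spacing of the values, and with the mapped reads stated in the study's Reporting Summary it gave RPM. No reliable estimate was found for CTCF in *Mettl3* KO hearts, for which no RPM is given.

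Peaks were tested with limma 3.58.1 in R 4.3.3 on log2(value + 1), in a model with the 3 genotypes and a variance trend. The design assumed members found by symbol. *Neat1*, *Gas5*, *Snhg1* and *Snhg12* were placed in GRCm39 by their distance, in GENCODE M21 of GRCm38, from the start of a flanking gene, and *Snhg8* by its identifier. This set by position, the gene sums and the ratios between peaks were chosen after values had been seen. Gene identifiers without a symbol were named from GENCODE M21, which held 36393 of the 38260 peaks with a gene. The 6 genes and all gene lists were chosen with earlier results of these data known. Peaks at the 6 genes with a mean Pol II value of at least 50 are given with their Pol II values per library and the others by range. CTCF values per library are given at *Malat1*, *Neat1*, the peak downstream of *Gas5* and the 3 peaks with a mean CTCF value of at least 50 and more CTCF than Pol II. From each list, called genes or the 2 with the highest mean are named, and 2 of these genes are not reported here.

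Alternatives were other library sizes, no filter, log2(value + 8), the compared genotypes only, a replicate block, no variance trend and leaving out each library. Python 3.11.15, pandas 2.3.3, numpy 2.4.6, scipy 1.17.1 and matplotlib 3.10.9 were used.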

Additional observations from a re-analysis of the deposited data

Results flagged for a closer look

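At the peak past the 3′ end of *Gas5*, both *Trdn-as* KO libraries were above both WT libraries and both *Mettl3* KO libraries were below them, and the difference between the knockouts, log2 1.37 (adjusted p = 3.96e-04 by limma), passed the test. Neither knockout passed against WT, with 0.94 (adjusted p = 0.078 by limma) in *Trdn-as* KO and -0.44 (adjusted p = 0.38 by limma) in *Mettl3* KO. In RPM, *Trdn-as* KO replicate 2 (7.40), the library with the lowest share of mapped reads in union peaks (18.6%), lay below both WT libraries (7.69 and 9.78). The call was lost with mapped reads as the library size, without a filter, without a variance trend and with only the compared genotypes. Groups of 2 libraries were not tested for outliers.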

How the results depend on the processing

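With 2 libraries per genotype, calls rest on a spread shared over genotypes and moved with the settings, and the causes were not tested except where stated. The number of Pol II peaks at the 6 genes called in *Trdn-as* KO against WT was 0, and 1 with median-ratio scaling or log2(value + 8). In *Mettl3* KO against WT it was 1, and 0 with mapped reads as library size, without a filter or without a variance trend, 4 with median-ratio scaling, 2 with log2(value + 8) and 6 with only the compared genotypes. Between the knockouts it was 1, and 0 with mapped reads, without a filter, with only the compared genotypes or without a trend, and 5 with median-ratio scaling. The number of gene sums called in *Mettl3* KO against WT was 1, and 0 with mapped reads, without a filter or without a trend, 2 with median-ratio scaling and 3 with only the compared genotypes. Between the knockouts it was 0, and 1 with median-ratio scaling. Leaving out 1 library at a time, peaks called ranged from 0 to 6 in *Trdn-as* KO against WT, 0 to 6 in *Mettl3* KO against WT and 0 to 8 between the knockouts, and gene sums from 0 to 3, 0 to 3 and 0 to 4. The peaks named *Malat1*, and their sum, ranged from 0 to 1 in *Trdn-as* KO against WT and between the knockouts. The highest numbers came without *Trdn-as* KO replicate 1, where calls over all 50758 Pol II peaks were 2185, 4931 and 9789. Leaving out any 1 library, these ranged from 17 to 2185, 0 to 4975 and 11 to 9789. In *Mettl3* KO against WT, 6 peaks were called without either *Trdn-as* KO library and 0 without any 1 WT or *Mettl3* KO library, which leaves a lone sample assumed to vary like the other groups. No CTCF peak at the 6 genes was called under any setting.

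Over all Pol II peaks, calls in *Mettl3* KO against WT went from 629 to 0 without a filter, 2 without a trend, 30 with mapped reads, 1027 with log2(value + 8), 2479 with median-ratio scaling and 4891 with only the compared genotypes. Higher calls were 375 of the 629, 9 of the 30, 1333 of the 2479 and 4110 of the 4891. In *Trdn-as* KO against WT they went from 160 to 2, 4, 123, 232, 320 and 43, and between the knockouts from 790 to 1, 12, 220, 1294, 1486 and 66, in the same order. The median of all peaks moved from -0.07 to -0.67 in *Trdn-as* KO against WT, from 0.08 to -0.06 in *Mettl3* KO against WT and from -0.16 to -0.62 between the knockouts with mapped reads. Relative to that median, the *Neat1* start peak in *Mettl3* KO against WT lay between -0.41 and -0.40 under the 3 scalings, and the peak downstream of *Gas5* between the knockouts between 1.53 and 1.54.

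The *Neat1* start difference in *Mettl3* KO against WT stayed below 0 in every setting, with limma adjusted p from 2.97e-12 to 1. The peak downstream of *Gas5* between the knockouts had adjusted p of 0.39 with mapped reads (0.92), 0.40 without a filter, 0.055 with only the compared genotypes and 0.28 without a trend. Against WT it passed in *Trdn-as* KO with median-ratio scaling (1.01, adjusted p = 0.0018 by limma) and log2(value + 8) (0.89, adjusted p = 0.027 by limma).

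Same-numbered libraries did not deviate together (correlations of -0.0096 to -0.00023 for Pol II and -0.24 to 0.0059 for CTCF), so they share only a number. With a replicate block, Pol II calls over all peaks were 201, 756 and 950 in the 3 comparisons, the *Neat1* start peak had -0.32 (adjusted p = 0.082 by limma) and the *Neat1* end peak passed (adjusted p = 0.046 by limma).

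Some differences that did not pass the main test changed sign, those with mapped reads along with the shift of the median of all peaks given above. Relative to that median the *Neat1* start difference between the knockouts was 0.36 with either scaling, and *Gas5* and *Snhg8* in *Trdn-as* KO against WT had 0.094 and 0.12 with mapped reads beside 0.098 and 0.13. With mapped reads, *Trdn-as* KO against WT gave -0.57 at the *Gas5* start and -0.54 at the *Snhg8* start, and the knockouts differed by -0.26 at the *Neat1* start, -0.27 in its body, -0.22 at its end and -0.27 in its sum. With median-ratio scaling, Pol II at the *Snhg1* start gave 0.020 in *Trdn-as* KO against WT and at *Malat1* 0.11 between the knockouts, while CTCF at *Neat1* gave -0.022, 0.027 and -0.049 in the 3 comparisons and at *Malat1* -0.078 between the knockouts. Leaving out 1 library, *Trdn-as* KO against WT ranged from -0.36 to 0.026 at *Malat1*, -0.27 to 0.028 at *Neat1*, -0.32 to 0.012 in the *Neat1* sum, -0.18 to 0.23 at *Gas5*, -0.24 to 0.14 at *Snhg1*, -0.30 to 0.053 at *Snhg12*, -0.016 to 0.13 at *Snhg8* and -0.014 to 0.044 for CTCF at *Neat1*. *Mettl3* KO against WT ranged from -0.46 to 0.061 downstream of *Neat1*, -0.094 to 0.063 upstream of *Malat1* and -0.79 to 0.21 for CTCF downstream of *Gas5*. Between the knockouts it ranged from -0.26 to 0.13 at *Malat1*, -0.38 to 0.025 at *Gas5*, -0.12 to 0.49 in the *Neat1* body, -0.091 to 0.58 at its end and -0.59 to 0.027 downstream of it. Mapped reads as library size were not run for CTCF, for which the value of 1 read was not known in *Mettl3* KO libraries. IgG, with 1 library per genotype, limits the background to counting error.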
